A study of Mus musculus with 6 samples.

Results

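The endoplasmic reticulum (ER) chaperones, the translocon and the unfolded protein response (UPR) were followed as 39 genes in a table of 22186 genes. The 39 were chosen by gene symbol from a list of ER functions, with earlier results of these data known, and every one had a row in the table. Messenger RNA was sequenced from primary adipose-derived stem cells (ADSCs, fibroblast-like cells of fat) of wild-type mice. There were 2 groups, ADSCs alone (control, n = 3) and ADSCs kept for 48 h together with regulatory T cells (Treg, which restrain immune responses; n = 3). Strain, age and sex are left unnamed by the labels used here, as is whether replicates came from different animals or cultures. The p-values therefore measure only how far these libraries spread, which may be technical variation. There was no group with another cell type in place of Treg, so what is due to Treg and what to co-culture itself cannot be told apart. The labels do not say whether the cells were in contact or how ADSCs were separated from Treg before RNA was taken.

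Proteins that a cell secretes or places in its membranes enter the ER through the Sec61 channel and fold there with the help of chaperones, disulfide isomerases and prolyl isomerases. Proteins that fail to fold are moved back to the cytosol and degraded. When unfolded proteins build up, the sensors IRE1 (gene Ern1), ATF6 and PERK (gene Eif2ak3) start the UPR, which raises transcription of chaperone and degradation genes and, through PERK, slows translation. Stromal cells secrete much collagen and other matrix and use this machinery constantly.

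The deposited values are TPM, which express each gene's reads per length as a share of a fixed total. They keep no sequencing depth, which is unknown here, so no interval for counting error is given. A gene was tested when its mean over the 6 libraries was at least 1 TPM, which 12405 genes and 38 of the 39 members were. A gene was called higher or lower when its Benjamini-Hochberg adjusted p in limma, over all genes tested, was under 0.05. Log2 fold changes are differences of log2(TPM + 1) with their standard errors (SE), means are given ± SD with n = 3 per group, and folds are ratios of mean TPM. The 9 stromal markers were all present and summed to between 2571 and 2642 TPM in every library, a sum of which Itgb1 alone made up 1057 TPM in controls. Within it 3 were called higher, among them Cd44 (119.9 to 180.1 TPM), and 5 lower, among them Pdgfra (190.3 to 139 TPM) and Cd34 (66.9 to 47.9 TPM). Of 10 T cell and Treg markers 6 (Cd3e, Cd3d, Cd3g, Cd4, Il2ra and Ctla4) were listed at 0 in all 6 libraries, and the list summed to between 3.25 and 4.17 TPM. Groups were separated along the first principal component (64.4% of the variance). Treg co-culture 1 stood apart on the second (11.5%; score 14.2 against -7.66 and -7.31) and held transcripts of liver and heart, with 8 hepatocyte markers summing to 105 TPM against at most 1.97 TPM elsewhere and 7 adult cardiomyocyte markers to 24.9 TPM against at most 1.61 TPM.

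Of the 9 members listed as Hsp70 and Hsp90 chaperones of the ER and their co-factors, 8 rose after Treg co-culture. That list does not hold every such gene. Outside it, Sil1, an exchange factor for Hspa5, fell, as did Sdf2, a relative of the listed Sdf2l1 (log2 fold change -0.23, adjusted p = 0.0131 in limma). Dnajc10, which works with Hspa5, rose, and some others were not called. Of 38 members tested, 19 rose (50.0%, against 19.8% of all genes tested) and 3 fell (7.89%, against 18.0%). The median log2 fold change of the members was 0.09, against 0.0015 over all genes tested. Because the members were chosen with earlier results of these data known, these counts and medians describe the list and do not test it. The changes were small: the largest rise was in Sdf2l1, a partner of the chaperone Hspa5, at 1.46-fold, and the largest fall in Crebrf, a regulator of the transcription factor CREB3, at 1.51-fold. Among the members called in either direction the median absolute log2 fold change was 0.18, and among all called genes (37.8% of those tested) it was 0.31. For 19 of the 38 tested members all 3 co-culture values lay above all 3 controls (25.3% of all genes tested), and these were the 19 called higher. This adds no separate support, since the calls rest on the same 6 values. Any gene without such overlap is also higher within each of the 3 batches that the labels give. All 3 co-culture values lay below all controls for 5 members (24.0% of all genes tested), namely Dnajb9, Ppib, Crebrf, Sec62 and Ssr4, and the groups of the other 14 overlapped. Without Treg co-culture 1, 17 rose and 3 fell. In bulk RNA, fewer cells of a type and less RNA per cell cannot be told apart. The 7 skeletal muscle markers summed to between 1154 and 1201 TPM in controls and between 3038 and 3116 TPM in co-culture, with none listed at 0 in all libraries and all 7 called higher. The 7 macrophage markers, again with none at 0 throughout, summed to between 85.3 and 91.7 TPM in controls and between 61.4 and 73.7 TPM in co-culture. Of the 5 tested only Lyz2 was called (65.9 to 44.7 TPM), and Csf1r lay higher in co-culture (4.58 to 5.38 TPM, not called). The 6 adipocyte markers, of which Lep was at 0 throughout, summed to between 109 and 119 TPM and between 86.3 and 96.2 TPM, with 3 of 4 tested called lower. The part of these cell types in the changes of the ER genes was not tested.

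**Figure D1:**
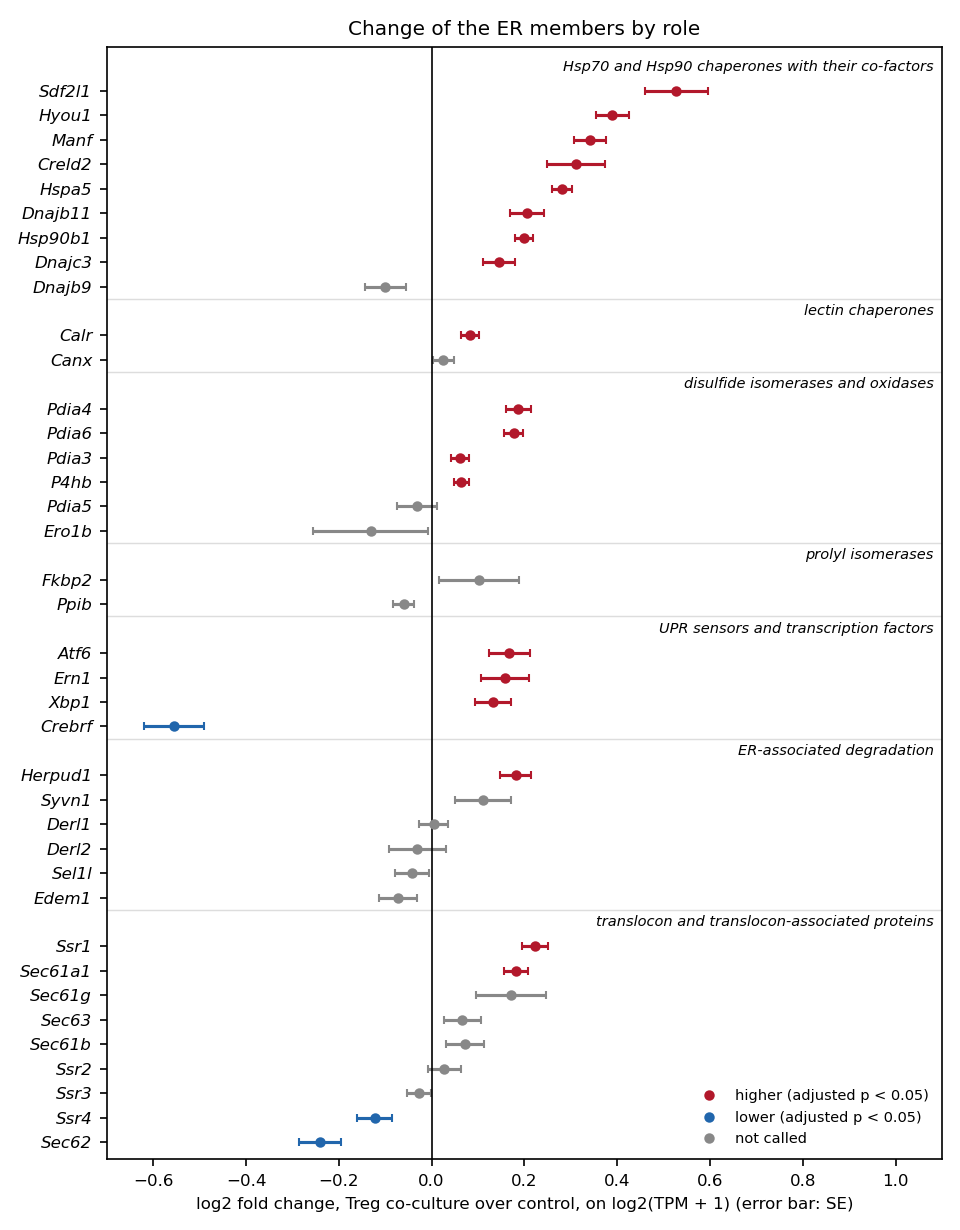
Log2 fold change of each tested member (x axis, on log2(TPM + 1), co-culture over control) with its SE, grouped by role; red and blue mark genes called higher and lower in limma and grey those not called. The Hsp70 and Hsp90 chaperones and their co-factors lie to the right of 0, from 0.15 for Dnajc3 to 0.53 for Sdf2l1, except Dnajb9 at -0.10, and Crebrf lies farthest to the left at -0.55.

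Together the 39 members took 1.18% to 1.20% of all TPM in controls and 1.29% to 1.30% after co-culture. Their summed TPM were 11827 to 12049 in controls and 12851 to 12999.6 after co-culture, 8.21% more on average, and the groups did not overlap. Levels spanned more than 3 orders of magnitude (per length, as TPM). The Hsp90-type chaperone Hsp90b1 led in controls with 1496 TPM, followed by Calr, P4hb, Hspa5 and Pdia3, and these 5 genes stayed above 1000 TPM in every library and held 53.3% to 54.5% of the members' TPM. Hspa5 passed P4hb after co-culture, with 1390.1 ± 13.6 against 1328 ± 7.91 TPM, whereas in controls it lay below it at 1144 ± 30.2 against 1270.0 ± 12.2 TPM. Another 18 members had control means between 100 and 1000 TPM. At the bottom lay the oxidase Ero1b, the less widely expressed relative of Ero1a, at 4.80 ± 0.712 TPM, and the derlin Derl3, the 1 member not tested, with 0.492, 0.443 and 0.593 TPM in controls 1 to 3 and 1.24, 0.793 and 0.421 TPM in co-culture 1 to 3, where the groups overlapped and the highest value was that of Treg co-culture 1.

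**Figure D2:**
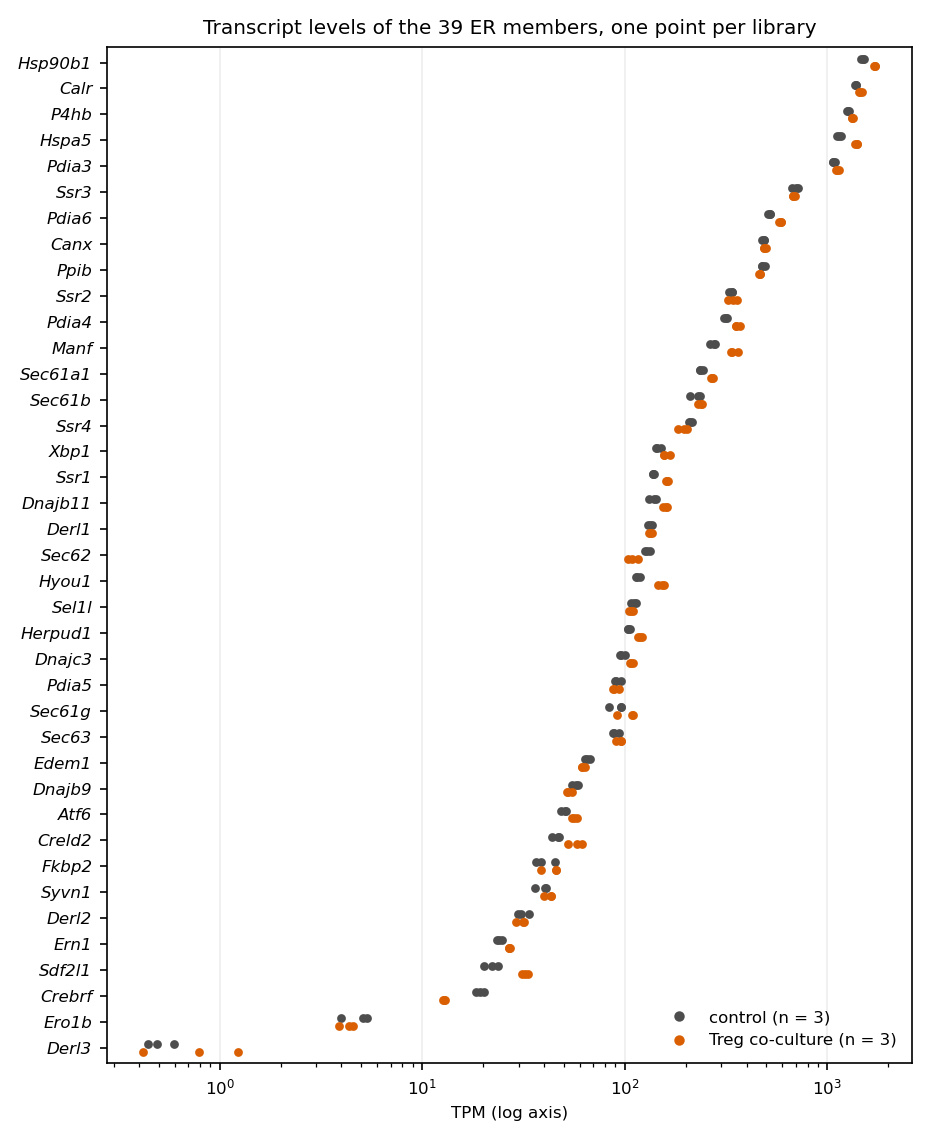
TPM (x axis, log scale) of the 39 members in each of the 3 control (grey) and 3 Treg co-culture (orange) libraries, ordered by control mean. Libraries of a group lie close together, and the shift between the groups is small beside the range from Derl3 (under 2 TPM) to Hsp90b1 (over 1000 TPM).

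The best-known DNA signature of ER chaperone genes is the ER stress element, the letters CCAAT and CCACG separated by any 9 bases, which ATF6 and XBP1 bind together with the CCAAT-binding factor NF-Y. The promoters are shown because it was members with and without this element that could be set beside their transcript changes. RefSeq promoter windows (mouse GRCm38.p6, 250 bases before to 50 after a start) were found for 33 of the 39 members, and the element was searched in them on both strands. Manf, Hyou1, Atf6, Derl1, Sec61a1 and Ssr2 had no window and were not searched. Of these 33 genes, 10 held the element. Counted by window and not by gene, it was in 39 of all 32851 (0.119%), the members' own included, and 29 genes of the table held it. As the element is known from ER chaperone genes, its presence among the members is no result of these data. The matches are written 5′ to 3′ in the direction of the element, with the CCAAT and CCACG parts in capitals:
Hspa5: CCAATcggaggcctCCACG
Hsp90b1 (distal): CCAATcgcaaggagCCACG
Hsp90b1 (proximal): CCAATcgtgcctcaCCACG
Calr: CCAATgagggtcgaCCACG
Pdia6: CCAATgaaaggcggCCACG
Dnajc3: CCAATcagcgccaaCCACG
Creld2: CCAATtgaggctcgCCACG
Canx: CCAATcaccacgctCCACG
Syvn1: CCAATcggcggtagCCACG
Ero1b: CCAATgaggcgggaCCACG
Derl3: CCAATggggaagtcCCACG

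The Hspa5 element lay at chr2:34772025-34772043 on the plus strand, in the direction of the gene, -65 to -47 from the start. Hsp90b1 was the 1 member with a pair of matches, the distal one in the direction of the gene at -212 to -194 (chr10:86705638-86705656) and the proximal one on the opposite strand at -107 to -89 (chr10:86705533-86705551). The others lay between -201 (Ero1b) and -26 (Syvn1). Of the 9 members with the element that were tested, 6 rose (Hspa5, Hsp90b1, Pdia6, Creld2, Calr and Dnajc3), none fell, and Canx, Syvn1 and Ero1b were not called. Of the 23 tested members with a window but no full match, 9 rose and 3 fell. Outside the members, 9 tested genes held the element, and 1 of them rose (Hnrnpa3) and 1 fell (Spats2l). These counts stand beside 19.8% higher and 18.0% lower among all genes tested. The element was therefore found in members that rose and in members that did not, and a match is only a run of letters, not a measured binding site.

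The bases upstream of the start are printed for the 5 members with the element that had the lowest adjusted p, in the direction of the gene, with CCAAT and CCACG of a full match in capitals (as CGTGG and ATTGG where the element lies on the opposite strand):
Hspa5, chr2:34771840-34772089, plus strand: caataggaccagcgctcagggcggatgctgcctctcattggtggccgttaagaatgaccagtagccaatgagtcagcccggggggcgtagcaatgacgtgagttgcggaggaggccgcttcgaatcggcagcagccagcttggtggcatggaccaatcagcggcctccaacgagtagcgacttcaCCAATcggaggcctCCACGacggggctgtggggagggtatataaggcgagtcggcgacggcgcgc
Hsp90b1, chr10:86705445-86705694, minus strand: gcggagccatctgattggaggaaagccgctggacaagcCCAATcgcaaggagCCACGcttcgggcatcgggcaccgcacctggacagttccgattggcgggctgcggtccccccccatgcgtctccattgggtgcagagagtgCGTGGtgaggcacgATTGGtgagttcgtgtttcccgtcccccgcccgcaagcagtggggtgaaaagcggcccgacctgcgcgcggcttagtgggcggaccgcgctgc
Pdia6, chr12:17266339-17266588, plus strand: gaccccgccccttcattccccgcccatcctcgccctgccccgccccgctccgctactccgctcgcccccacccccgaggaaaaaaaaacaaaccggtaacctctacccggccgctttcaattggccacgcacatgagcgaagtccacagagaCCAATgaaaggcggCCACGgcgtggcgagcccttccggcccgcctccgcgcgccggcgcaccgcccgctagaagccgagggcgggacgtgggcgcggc
Creld2, chr15:88819396-88819645, plus strand: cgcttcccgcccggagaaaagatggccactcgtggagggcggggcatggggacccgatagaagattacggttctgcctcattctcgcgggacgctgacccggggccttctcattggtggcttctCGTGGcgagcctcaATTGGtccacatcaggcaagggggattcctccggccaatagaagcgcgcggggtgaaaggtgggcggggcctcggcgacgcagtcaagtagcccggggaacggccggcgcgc
Calr, chr8:84846932-84847181, minus strand: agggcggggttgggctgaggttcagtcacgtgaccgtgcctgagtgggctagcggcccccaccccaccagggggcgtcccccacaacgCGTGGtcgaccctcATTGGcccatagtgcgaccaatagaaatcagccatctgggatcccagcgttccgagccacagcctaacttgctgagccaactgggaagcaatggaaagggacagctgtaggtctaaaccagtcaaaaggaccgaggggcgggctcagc

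GC content of these 5 stretches ran from 62.0% to 70.4%. The core of the UPR element, TGACGTGG, was in none of the 33 members' windows and in 0.676% of all windows. The shorter ACGTGG, which the UPR element contains, was in windows of 12 members and in 8.31% of all windows. Of the 11 of these members that were tested, 5 rose and 1 (Crebrf) fell. Of 21 tested members with a window but without it, 10 rose and 2 fell. Outside the members, 1303 tested genes held it, of which 286 rose and 203 fell. A CCAAT box, which is also part of the ER stress element, was in windows of 26 members and in 37.4% of all windows. ATTGG and CCACG separated by 1 base, a second form of the element that was searched after the first results were seen, was in 2 members, Herpud1 (ATTGGgCCACG, -52 to -42 from the start) and Dnajb11 (ATTGGcCCACG, 8 to 18), and both rose. This second form was in 12 of all windows (0.0365%). Of 30 tested members with a window but without it, 13 rose and 3 fell. Outside the members, 7 tested genes held it, of which 1 rose and 2 fell. For all these motifs, the counts of genes that rose or fell stand beside 19.8% higher and 18.0% lower among all genes tested.

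**Figure D3:**
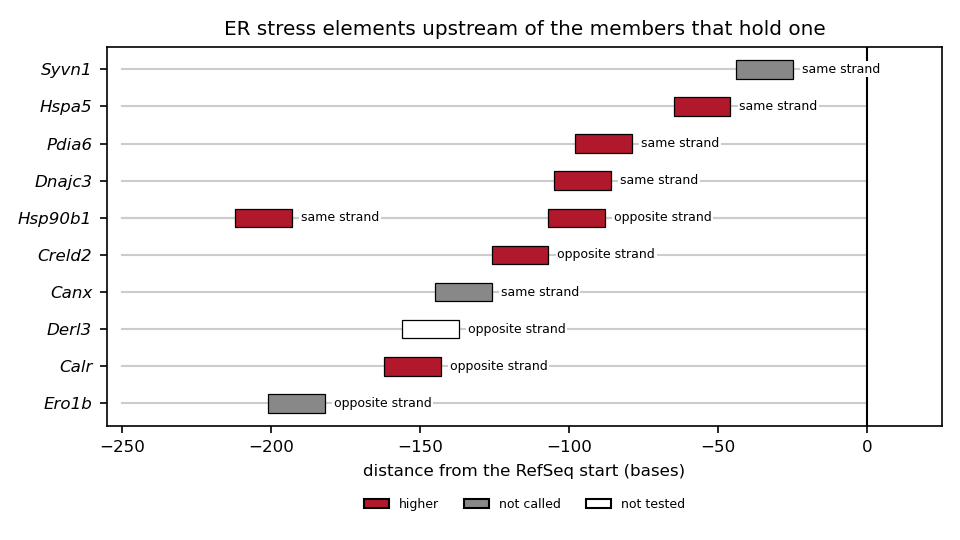
Position of each ER stress element (boxes) relative to the RefSeq start (x axis, bases) in the 10 members that hold one, with its strand relative to the gene. Red boxes are members called higher, grey ones members not called, and the white box is Derl3, which was not tested; boxes of both colours lie across the same stretch.

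The members listed as Hsp70 and Hsp90 chaperones and their co-factors had 8 of 9 genes higher, none lower and a median log2 fold change of 0.28. Among all genes tested 19.8% were higher and the median was 0.0015. Hspa5 (also called BiP), the ER's Hsp70, holds unfolded chains and keeps the UPR sensors inactive. It had 1176, 1116 and 1139 TPM in controls 1, 2 and 3 and 1398, 1374 and 1398 TPM in co-cultures 1, 2 and 3. Its promoter holds the element at -65 to -47. The lowest co-culture value was above the highest control, a 1.22-fold rise (log2 fold change 0.28, SE 0.02, adjusted p = 5.29e-06 in limma). Hsp90b1, which folds integrins and Toll-like receptors among others, stood at 1522, 1462 and 1503 TPM in controls against 1729.7, 1697 and 1726 TPM in co-culture. It rose 1.15-fold (log2 fold change 0.20, SE 0.02, adjusted p = 2.56e-05), again with no overlap. Hyou1, which reloads Hspa5 with ATP, went from 115, 118 and 114 TPM to 146, 156 and 153 TPM, a 1.31-fold rise (log2 fold change 0.39, SE 0.04, adjusted p = 1.65e-05).

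J-domain proteins deliver clients to Hspa5 and make it hydrolyse ATP, and those tested did not move as one. Dnajb11, which binds nascent chains at the translocon, rose from 138 ± 5.62 to 159 ± 3.52 TPM (log2 fold change 0.21, SE 0.04, adjusted p = 0.00148). Dnajc3, which also restrains PERK, rose from 97.4 ± 2.67 to 108 ± 1.75 TPM (log2 fold change 0.15, SE 0.03, adjusted p = 0.00783). Dnajb9 had 57.2, 59.0 and 55.0 TPM in controls against 52.7, 52.0 and 54.8 TPM in co-culture. All its co-culture values lay below all controls, yet it did not pass the test (log2 fold change -0.10, SE 0.04, adjusted p = 0.103), with within-batch log2 differences of -0.12, -0.18 and -0.0042. The ratio of Hspa5 to Dnajb9 TPM was accordingly 18.9 to 20.7 in controls and 25.5 to 26.5 after co-culture, without overlap.

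Sdf2l1, Manf and Creld2 were with Hyou1 the 4 members whose log2 fold change was highest. Sdf2l1, which works with Dnajb11, stood at 23.8, 20.1 and 22.2 TPM in controls against 32.0, 31.1 and 33.3 TPM in co-culture (1.46-fold, log2 fold change 0.53, SE 0.07, adjusted p = 0.000175). Of all genes tested, 8.17% had a larger absolute log2 fold change than Sdf2l1. Manf, a secreted trophic factor that binds Hspa5 in the ER, had 264, 275 and 278 TPM in controls against 333, 339.5 and 363 TPM in co-culture (1.27-fold, log2 fold change 0.34, SE 0.04, adjusted p = 3.93e-05). Creld2, an ER protein with EGF-like repeats, had 43.6, 47.7 and 46.7 TPM in controls against 58.1, 52.2 and 61.9 TPM in co-culture. Its values did not overlap, but Treg co-culture 2 lay closer to the controls than the other two (log2 fold change 0.31, SE 0.06, adjusted p = 0.00328), and its log2 difference was 0.13 within batch 2 against 0.41 and 0.40 within batches 1 and 3.

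**Figure D4:**
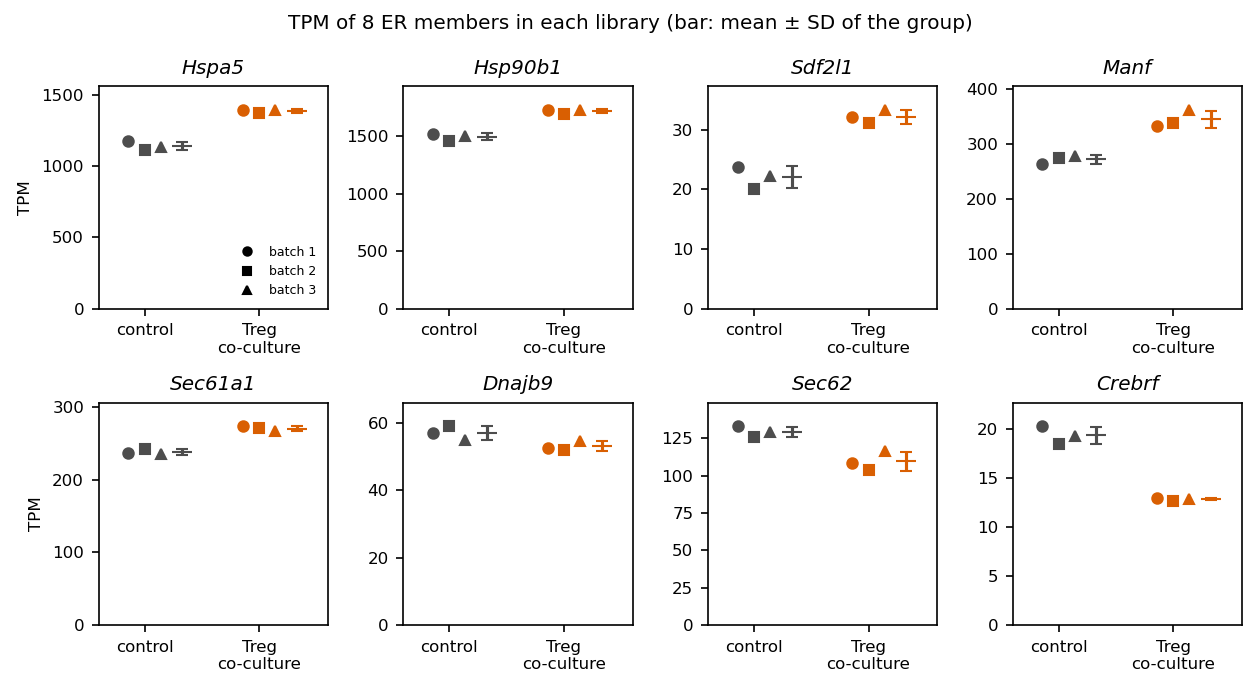
TPM (y axis, from 0) of 8 members in each library, with batches 1 to 3 as circles, squares and triangles and the group mean ± SD beside them. Hspa5, Hsp90b1, Sdf2l1, Manf and Sec61a1 are higher in all 3 co-culture libraries, Sec62 and Crebrf lower in all 3, and the 2 groups of Dnajb9 lie next to each other.

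Lectin chaperones hold glycoproteins by their sugars, and 1 of 2 rose, with a median log2 fold change of 0.05. The share of all genes tested that rose was 19.8%. Calreticulin, Calr, went from 1381 ± 10.6 to 1462 ± 27.5 TPM and rose by 0.08 on the log2 scale (SE 0.02, adjusted p = 0.00623), a call lost under quantile normalization (log2 fold change 0.03, adjusted p = 0.258) and in limma without the mean-variance trend. Its membrane-bound relative calnexin, Canx, whose promoter also holds the element, had 489.7, 477 and 485 TPM in controls against 486, 490.2 and 501 TPM in co-culture. These groups overlapped, and Canx was not called (log2 fold change 0.03, SE 0.02, adjusted p = 0.412).

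Disulfide isomerases form and reshuffle disulfide bonds. Of the 6 isomerases and oxidases 4 rose and none fell, with a median of 0.06. Among all genes tested 19.8% rose and 18.0% fell. Pdia4 rose from 315 ± 4.61 to 359 ± 9.55 TPM (log2 fold change 0.19, SE 0.03, adjusted p = 0.000377). Pdia6 rose from 518 ± 7.30 to 586 ± 6.05 TPM (log2 fold change 0.18, SE 0.02, adjusted p = 0.000115). The calnexin partner Pdia3 (log2 fold change 0.06, adjusted p = 0.0282) and P4hb, the classical isomerase and a subunit of the collagen prolyl hydroxylase (log2 fold change 0.06, adjusted p = 0.0131), both rose 1.04-fold. Pdia3 lost its call without control 2, control 3, Treg co-culture 2 or 3, and P4hb without Treg co-culture 2. Pdia3 also lost it with no filter on low values, P4hb under quantile normalization (log2 fold change 0.02), and both in limma without the trend. Without Treg co-culture 2, and without the trend, 2 of the 6, Pdia4 and Pdia6, were called. Pdia5 (96.0, 90.2 and 89.3 TPM in controls, 87.1, 94.3 and 88.2 TPM in co-culture) and Ero1b (5.33, 3.99 and 5.08 TPM in controls, 4.38, 4.57 and 3.89 TPM in co-culture) overlapped between the groups and were not called (adjusted p = 0.611 and 0.441).

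Neither prolyl isomerase was called (median 0.02). Ppib (cyclophilin B), which acts on procollagen, had 491, 478 and 476 TPM in controls against 464, 463 and 458 TPM in co-culture. All co-culture values lay below all controls, by a small margin (log2 fold change -0.06, adjusted p = 0.0544), and Ppib was called lower under median-of-ratios scaling (adjusted p = 0.0439), after rescaling without mitochondrial and ribosomal protein genes (0.0402) and under quantile normalization (0.0067). Fkbp2 ranged from 36.7 to 45.4 TPM in controls and from 38.6 to 45.7 TPM in co-culture, with overlap (adjusted p = 0.38).

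Of the 4 genes of the UPR's sensors and transcription factors, 3 were higher and 1 lower (median 0.15). Among all genes tested 19.8% were higher and 18.0% lower, and 1 of 4 lower is near the latter share. Crebrf stood at 20.3, 18.5 and 19.4 TPM in controls against 13.0, 12.7 and 12.9 TPM in co-culture. It fell in every batch, 1.51-fold in all (log2 fold change -0.55, SE 0.07, adjusted p = 0.0001), and only 3.44% of all genes tested had a log2 fold change as low or lower. The rises were smaller. Atf6, whose cleaved fragment is the transcription factor, had 50.7, 48.6 and 51.1 TPM in controls against 58.3, 55.0 and 56.1 TPM in co-culture (log2 fold change 0.17, SE 0.04, adjusted p = 0.0121). Ern1, the kinase and nuclease that splices Xbp1, had 24.7, 23.9 and 23.5 TPM in controls against 26.8, 26.9 and 27.1 TPM in co-culture (log2 fold change 0.16, SE 0.05, adjusted p = 0.0364). Xbp1 itself had 152, 144 and 143 TPM in controls against 157, 168 and 157 TPM in co-culture (log2 fold change 0.13, SE 0.04, adjusted p = 0.0205). For none of these 3 genes did the values overlap between control and co-culture. Atf6 lost its call without Treg co-culture 1, Ern1 without any 1 library other than control 1 and with the batches as a block (adjusted p = 0.0625), and Xbp1 without control 2, control 3 or Treg co-culture 2, so that 1 of the 3 was called in 4 of the 6 fits that left out a library. Ern1 and Xbp1 also lost their calls under quantile normalization, and Xbp1 without the trend. Gene-level TPM do not separate spliced from unspliced Xbp1, nor do they measure cleavage of ATF6.

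ER-associated degradation, which pulls misfolded proteins out for the proteasome, had 1 of 6 tested members higher and none lower (median -0.01), which is near the share of all genes tested that rose (19.8%). The riser was Herpud1, the scaffold of the degradation complex. It had 104, 107 and 104 TPM in controls against 122, 119 and 117 TPM in co-culture (1.14-fold, log2 fold change 0.18, SE 0.03, adjusted p = 0.00162). The ubiquitin ligase Syvn1 (log2 fold change 0.11, adjusted p = 0.177), its partner Sel1l (-0.04, 0.396), the mannose-recognizing Edem1 (-0.07, 0.186) and the channel-like Derl1 (0.0046, 0.923) and Derl2 (-0.03, 0.732) all overlapped between the groups. Derl1 differed least, at 134 ± 3.33 to 134 ± 1.62 TPM.

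In the translocon, 2 of 9 members rose and 2 fell, with a median of 0.07. Both counts are near the shares of all genes tested (19.8% higher and 18.0% lower). Sec61a1, the channel-forming subunit, had 236, 243 and 235 TPM in controls against 273, 271 and 266 TPM in co-culture (1.13-fold, log2 fold change 0.18, SE 0.03, adjusted p = 0.000369). The small subunits Sec61b (225 ± 13.0 to 237 ± 5.64 TPM, adjusted p = 0.192) and Sec61g (91.8 ± 7.17 to 104 ± 10.7 TPM, adjusted p = 0.104) were not called. Both Sec61g values of batch 3 were low (83.5 TPM in control 3 and 91.3 TPM in Treg co-culture 3), and with the batches as a block Sec61g was called higher (adjusted p = 0.00788), as it was without Treg co-culture 3.

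Sec62 and Sec63 assist the channel in taking up small and slowly inserted proteins, and Sec62 also marks surplus ER for autophagy. Sec62 had 133, 126 and 129 TPM in controls against 109, 104 and 116 TPM in co-culture, a 1.18-fold fall (log2 fold change -0.24, SE 0.04, adjusted p = 0.00185). Sec63 overlapped between the groups at 90.2 ± 3.44 to 94.4 ± 2.88 TPM (adjusted p = 0.23). The ratio of Sec62 to Sec63 TPM was 1.41 to 1.47 in controls and 1.08 to 1.28 after co-culture.

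The 4 Ssr genes encode the translocon-associated protein (TRAP) complex, which helps some signal sequences to engage the channel, and their transcripts moved apart. Ssr1 had 138, 138 and 139.8 TPM in controls against 164, 162 and 160.4 TPM in co-culture (1.17-fold, log2 fold change 0.22, SE 0.03, adjusted p = 0.000155). Ssr4 had 209.9, 215 and 209 TPM in controls against 197, 183 and 202 TPM in co-culture (log2 fold change -0.12, SE 0.04, adjusted p = 0.0274), all lower than controls, though its call was lost without control 2, control 3 or Treg co-culture 2, which left 1 translocon member lower, as did limma with no filter on low values or without the trend. Ssr2 (335 ± 6.76 to 341 ± 17.7 TPM, adjusted p = 0.589) and Ssr3, the most abundant of the 4 (698 ± 23.6 to 685 ± 6.51 TPM, adjusted p = 0.457), overlapped. The ratio of Ssr1 to Ssr4 went from 0.644 to 0.670 in controls to 0.793 to 0.886 after co-culture, and that of Ssr3 to Ssr1 from 4.86 to 5.21 to 4.20 to 4.25.

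Counted over all settings tried, 13 members were called higher in the main fit and in each of 15 alternatives. They were Hspa5, Hsp90b1, Hyou1, Dnajb11, Dnajc3, Sdf2l1, Manf, Creld2, Pdia4, Pdia6, Herpud1, Sec61a1 and Ssr1. Likewise 2 were lower in all, Crebrf and Sec62. For any single gene an exact two-sided permutation test of 3 against 3 libraries cannot give a p under 0.1, which is what the TPM of Hspa5 gave over its 20 arrangements.

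The PERK arm, represented by 11 further genes, had 1 higher and 3 lower (median -0.10), beside 19.8% higher and 18.0% lower among all genes tested. Ddit3 (CHOP), the stress-induced transcription factor, had 187, 189 and 172 TPM in controls against 149, 160.4 and 148 TPM in co-culture (log2 fold change -0.26, SE 0.04, adjusted p = 0.00112). Ppp1r15a (GADD34), which restores translation by reversing PERK's phosphorylation of eIF2, went from 82.6 ± 4.92 to 70.1 ± 2.27 TPM (log2 fold change -0.23, SE 0.05, adjusted p = 0.00383), and the glutathione-degrading Chac1 from 26.9 ± 1.47 to 23.3 ± 1.43 TPM (log2 fold change -0.20, SE 0.07, adjusted p = 0.036), a call lost without control 1, control 2, Treg co-culture 1 or 3. Eif2s1, the phosphorylated subunit of eIF2, was the 1 that rose, from 83.0 ± 2.74 to 101 ± 2.46 TPM (log2 fold change 0.28, SE 0.04, adjusted p = 0.000292). Eif2ak3, the sensor itself (-0.10, adjusted p = 0.195), and its effector Atf4 (0.08, 0.142), both named after their values were seen, were not called. With each library left out in turn, 1 or 2 of the 11 were higher and 2 or 3 lower, with 2 higher and 2 lower without control 2. Of 8 tested genes of the ATF6 and CREB3 families and their proteases (median 0.04), Creb3l2 rose (log2 fold change 0.27, adjusted p = 0.000781) and the protease gene Mbtps1 fell (-0.11, 0.0484), a call that the same 4 omissions ended.

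Folding enzymes of the ER outside the members are given next, with the log2 fold change and then the adjusted p of each gene in parentheses. Their counts, and those of the lists after them, stand beside 19.8% higher and 18.0% lower among all genes tested. Of 18 further oxidoreductases 3 rose and 3 fell (median -0.02), both near these shares. Dnajc10, a disulfide reductase that works with Hspa5 (0.19, adjusted p = 0.00114), and Txndc11 (0.25, 0.00706) rose, and Ero1a, the main oxidase (145 ± 3.34 to 129 ± 1.69 TPM; -0.16, 0.00249), and Vkorc1 (-0.29, 0.00583), the vitamin K reductase, fell. Of 16 further chaperones and prolyl isomerases 1 rose and 6 fell (median -0.08). Fkbp9 (445 ± 5.24 to 349 ± 10.1 TPM; -0.35, 4.89e-06), Fkbp7 (-0.34, 0.000326) and Sil1 (-0.23, 0.00336), an exchange factor for Hspa5 like Hyou1, fell, and Fkbp11 rose (0.26, 0.00531). In the glycoprotein folding cycle 4 of 12 rose and 2 fell (median 0.07). The lectins Os9 (-0.26, 0.000543) and Erlec1 (-0.23, 0.00449), which sort glycoproteins for degradation, fell, and the cargo receptor Lman1 (0.15, 0.00158) and the glucosidase Mogs (0.28, 0.00485) rose.

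In the oligosaccharyltransferase, which attaches N-linked sugars beside the translocon, 6 of 12 rose and 1 fell (none when control 1, control 2 or Treg co-culture 3 was left out), with a median of 0.09. Log2 fold changes were 0.21 for Ostc (adjusted p = 0.000288), 0.23 for Tmem258 (0.00258), 0.16 for Rpn1 (0.00284) and 0.18 for Magt1 (0.0029). Of 16 genes of the signal recognition particle, its receptor, signal peptidase and TRAM, 6 rose and 1 fell (median 0.04), but 3 rose when control 3, Treg co-culture 1 or 3 was left out. Spcs3 (0.25, 0.000411), Srprb (0.24, 0.00259) and Srp54a (0.24, 0.0129; uncertain, since it has near-identical copies) rose, and Spcs1 fell (-0.16, 0.00621).

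Other ER lists are given in the same way, their counts again beside 19.8% higher and 18.0% lower among all genes tested. Of 17 further degradation genes (median -0.01) Herpud2 (-0.26, 0.00225) and Ngly1 (-0.22, 0.0236) fell and Ube2j2 rose (0.14, 0.0408). With the batches as a block Ube2j2 was not called (adjusted p = 0.0582), and 3 of the list fell. Ube2j2 also lost its call under quantile normalization and, with a library left out, at least without control 1, control 2, Treg co-culture 2 or 3. Ngly1 lost its call without control 1, control 3, Treg co-culture 1 or 2. In fits that left out 1 library, 0 or 1 rose and 1 to 3 fell. Of 15 genes of the ER membrane complex and tail-anchor insertion (median -0.0016) 2 rose, among them Emc6 (0.40, 0.00198), and 4 fell, among them Emc9 (-0.45, 0.0159) and Caml (-0.19, 0.014), with 1 or 2 higher and 0 to 4 lower when a library was left out. None fell without Treg co-culture 2, which ended the call of Caml, and that of Emc9 also ended without control 2, control 3 or Treg co-culture 1. Of 15 COPII and export genes (median 0.03) Sec13 (0.13, 0.00665) and Sec23b (0.18, 0.0111) rose and Mia3, which exports collagen, fell (-0.10, 0.0189). Mia3 was not called when control 3, Treg co-culture 1 or 3 was left out. Of 12 genes of the KDEL receptors, which return escaped chaperones, and of COPI (median 0.02), Kdelr2 rose (0.12, 0.00331) and Copz2 fell (-0.14, 0.0185), the latter lost without control 2, control 3 or Treg co-culture 3.

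Abundant secreted proteins are the main clients of this machinery in stromal cells. Of 20 such genes, collagens and other matrix proteins among them, 19 fell and 1 rose (the protease inhibitor Timp1), with a median log2 fold change of -0.27. Among all genes tested 18.0% fell and 19.8% rose. Their summed TPM were 54839 to 56083 in controls and 45749 to 46745 after co-culture. For each 100 TPM of this cargo the 39 members had 21.3 to 22.0 TPM in controls and 27.5 to 28.2 TPM in co-culture. TPM are shares of a fixed total, and the cargo's fall amounted to 0.924% of a library's TPM. Under median-of-ratios scaling 19 members rose and 4 fell.

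**Figure D5:**
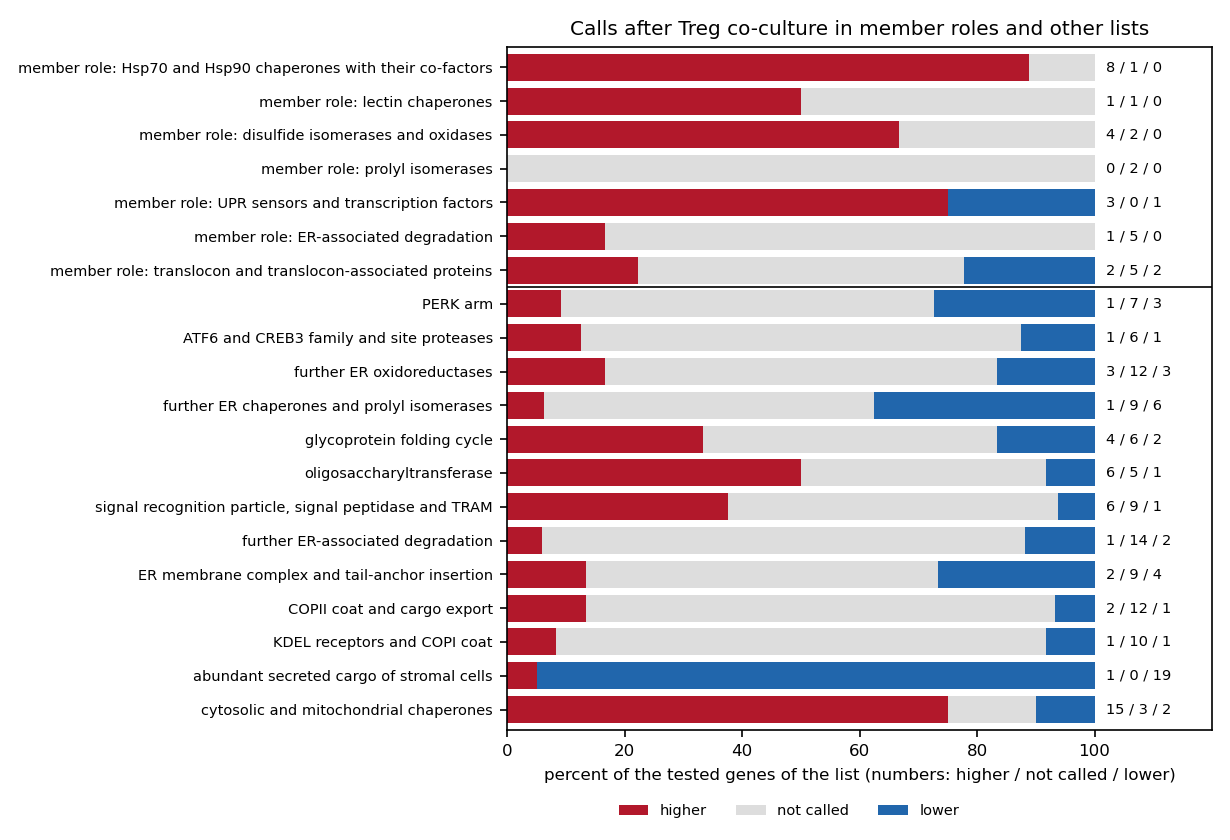
Percent of the tested genes of each list (x axis) called higher (red), not called (grey) and lower (blue) in limma, for the roles of the members (above the line) and for other lists (below it), with the counts at the right. The Hsp70 and Hsp90 role has 8 of 9 genes higher, the degradation role 1 of 6, and the secreted cargo 19 of 20 lower. Of all genes tested, 19.8% were higher and 18.0% lower.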

How the data were processed

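The authors deposited 1 table of TPM values, 1 column per library and 1 row per NCBI Gene number, per the file headers. The submitters' processing notes name GRCm38, mm10 and GRCm39 with no role; which aligner, counter and annotation were used, and how reads shared by similar genes were treated, was not given in the sources used here. Per the labels' protocols, messenger RNA was captured on beads.

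Symbols came from a RefSeq table (GRCm38.p6; 21992 of 22186 gene numbers, 99.1%), and promoter windows from RefSeq's GRCm38.p6 sequences, whatever build the authors used. limma (3.58.1, R 4.3.3; lmFit, eBayes with trend) tested log2(TPM + 1), with no block, where a gene averaged 1 TPM or more, and was tested on simulated data. Tables and plots used Python 3.11.15, pandas 2.3.3 and matplotlib 3.10.9.

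Members and lists were chosen with earlier results of these data known. All members could be named, and of each other list the up to 4 genes with the lowest adjusted p. Timp1, Eif2ak3, Atf4, Hspa1a, Sdf2, Cd44, Cd34, Pdgfra and the genes with the promoter element were named after their values were seen.

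The labels give libraries of the same number a shared batch. Deviations from the group means of same-numbered libraries correlated at 0.0115, -0.0146 and 0.00402, and others between -0.0606 and 0.0653. Alternatives were another pseudocount (0.1), no filter or one of 5 TPM, 3 other scalings, eBayes without the trend, the block, each library left out, and a threshold of 0.01.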

Additional observations from a re-analysis of the deposited data

How the results depend on the processing

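With the adjusted p threshold at 0.01, 3043 genes were called instead of 4688, and 14 members rose and 2 fell. With the batches as a replicate block 4492 genes were called, 19 members rose and 3 fell, their median log2 fold change was 0.09, and of the members' calls those of Ern1 and Sec61g changed; of the other genes named, that of Ube2j2. With each library left out in turn, 3930 to 4227 genes were called, 15 to 19 members rose, 2 or 3 fell, and the median was 0.07 to 0.11. Under quantile normalization and without the trend 15 members rose; the former left 1 UPR sensor gene and no lectin higher and 16 of 20 cargo genes lower, and the latter left 2 of 6 disulfide enzymes higher, 3 of 16 further chaperones, no oligosaccharyltransferase and no COPII gene lower and 3 targeting genes, 1 COPII gene and 11 of 20 non-ER chaperones higher. Only members that were not called changed sign. Derl1 was -0.02 and Canx -0.007 under quantile normalization, and with a library left out Derl1 ran from -0.01 to 0.02, Derl2 from -0.07 to 0.02, Pdia5 from -0.07 to 0.00066 and Ssr2 from -0.0059 to 0.07. Since TPM keep no depth, the precision of low genes such as Derl3 is unknown.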

Other observations

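Of 20 chaperone genes of the cytosol and mitochondria 15 rose and 2 fell after Treg co-culture, against 19.8% and 18.0% of all genes tested (14 or 15 and 2 with a library left out), with a median log2 fold change of 0.18. The mitochondrial chaperonin Hspd1 went from 337 ± 8.03 to 459 ± 8.60 TPM (log2 fold change 0.45, SE 0.03, adjusted p = 7.85e-07 in limma), and the cytosolic chaperonin subunits Cct3 (0.35, adjusted p = 5.19e-06) and Tcp1 (0.27, 9.64e-06) rose as well. The 2 that fell were the heat shock-inducible Hspa1b, from 72.3 ± 5.29 to 42.8 ± 2.57 TPM (log2 fold change -0.74, SE 0.06, adjusted p = 9.3e-06), and its near-identical copy Hspa1a (-0.59, 5.95e-05), chosen after its value was seen. The split between these copies is uncertain, because the labels do not say how shared reads were counted.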
